A study of Schizosaccharomyces pombe with 2 samples.

Results

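The genes described here carry the names that yeast genetics gave to secretory traffic between the endoplasmic reticulum (ER) and the Golgi apparatus. They are the genes of the fission yeast Schizosaccharomyces pombe whose standard name is sec, trs, ret, bet, bos, cog, erv, emp or cop followed by digits, and 74 of the 5289 features in the deposited tables matched. The measurement is 3' READS, a sequencing method that captures 3' ends of poly(A)-tailed RNA, and a read gives the base after which an mRNA was cleaved and tailed. There was a single group of 2 libraries, replicates A and B, both from wild-type cells labelled FWP9, growing exponentially in the rich medium YPD at 30 °C. The labels do not say that the replicates came from separate cultures, so the spread between them may be technical. There was no treatment or mutant to compare, and the results below set the members beside each other and beside all measured genes, as a description without a test.

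Newly made secretory proteins enter the ER through the Sec61 channel, leave it in vesicles coated by COPII, and are received at the Golgi by tethers such as the TRAPP complex and by SNARE proteins, which fuse the membranes. COPI-coated vesicles, whose coat is recruited by the small GTPase ARF, carry escaped ER proteins and recycled receptors back, and the COG complex tethers vesicles that return to and within the Golgi. The position at which each mRNA is cleaved fixes the length of its 3' untranslated region (3' UTR), the part of the message after the stop codon. In fission yeast, as in other eukaryotes, cleavage is directed by short A- and U-rich elements upstream of the site.

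By roles assigned here with the product names of the RefSeq annotation as a guide, the name rule took in more than ER-to-Golgi traffic. Of the 74 genes, 49 were placed between the ER and the Golgi or within the Golgi. Another 8 serve entry into the ER and 9 serve the exocyst or exocytosis, the last step at the plasma membrane. Not every product name states the step, as for sec2, sec18, sec39, sec73 and sec74. The remaining 8 share the letters of the name but have other annotated functions. These are trs1, a threonine-tRNA ligase, trs401 and trs402, whose products are annotated in ribosomal RNA maturation, erv1 and erv2, sulfhydryl oxidases, sec59, dolichol kinase, bet4, a subunit of a Rab prenyltransferase, and emp70, an endosomal transport protein.

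Reads were counted over the 400 nt after each stop codon, 50977367 in A and 54749219 in B, and the members held 95556 (0.187%) and 94643 (0.173%). A gene is called measured where each replicate held at least 50 reads. This left 59 of the 74 members and 3818 of the 5113 protein-coding genes. The measured members were of ordinary depth, with medians of 685 reads in A and 652 in B against 655 and 548.5 over all measured genes. The deepest were trs1 (8949 and 9578 reads, given here and below as A then B), sec16 (8607 and 12144 reads), trs401 (8557 and 11882 reads), ret3 (5940 and 4634 reads) and sec65 (4921 and 5067 reads). No molecular identifiers were given in the sources used here. The intervals below therefore take each read as independent and cover counting error only, and copies made in amplification would make them too narrow.

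Across the measured members the mean poly(A) site position, the read-weighted mean distance from the stop codon, had a median of 149 nt, close to the 143 nt of all measured genes, and it ran from 20.1 nt in cog6 to 374 nt in cog4. The all-gene median had 27 members under it and 32 over it, and by construction 50% of all genes lie under it. The spread of sites within a gene was measured as its width, the distance between the 10th and 90th percentiles of its reads. Its median was 84.5 nt for the members and 62.5 nt for all genes, and 34 of 59 members (57.6%) were wider than the median gene, against 49.9% of all genes. The effective number of sites, which weights each site by its use, had a median of 4.76 for the members and 4.73 for all genes. The members shared no common 3' UTR length, and their values are given below by complex and by gene.

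**Figure D1:**
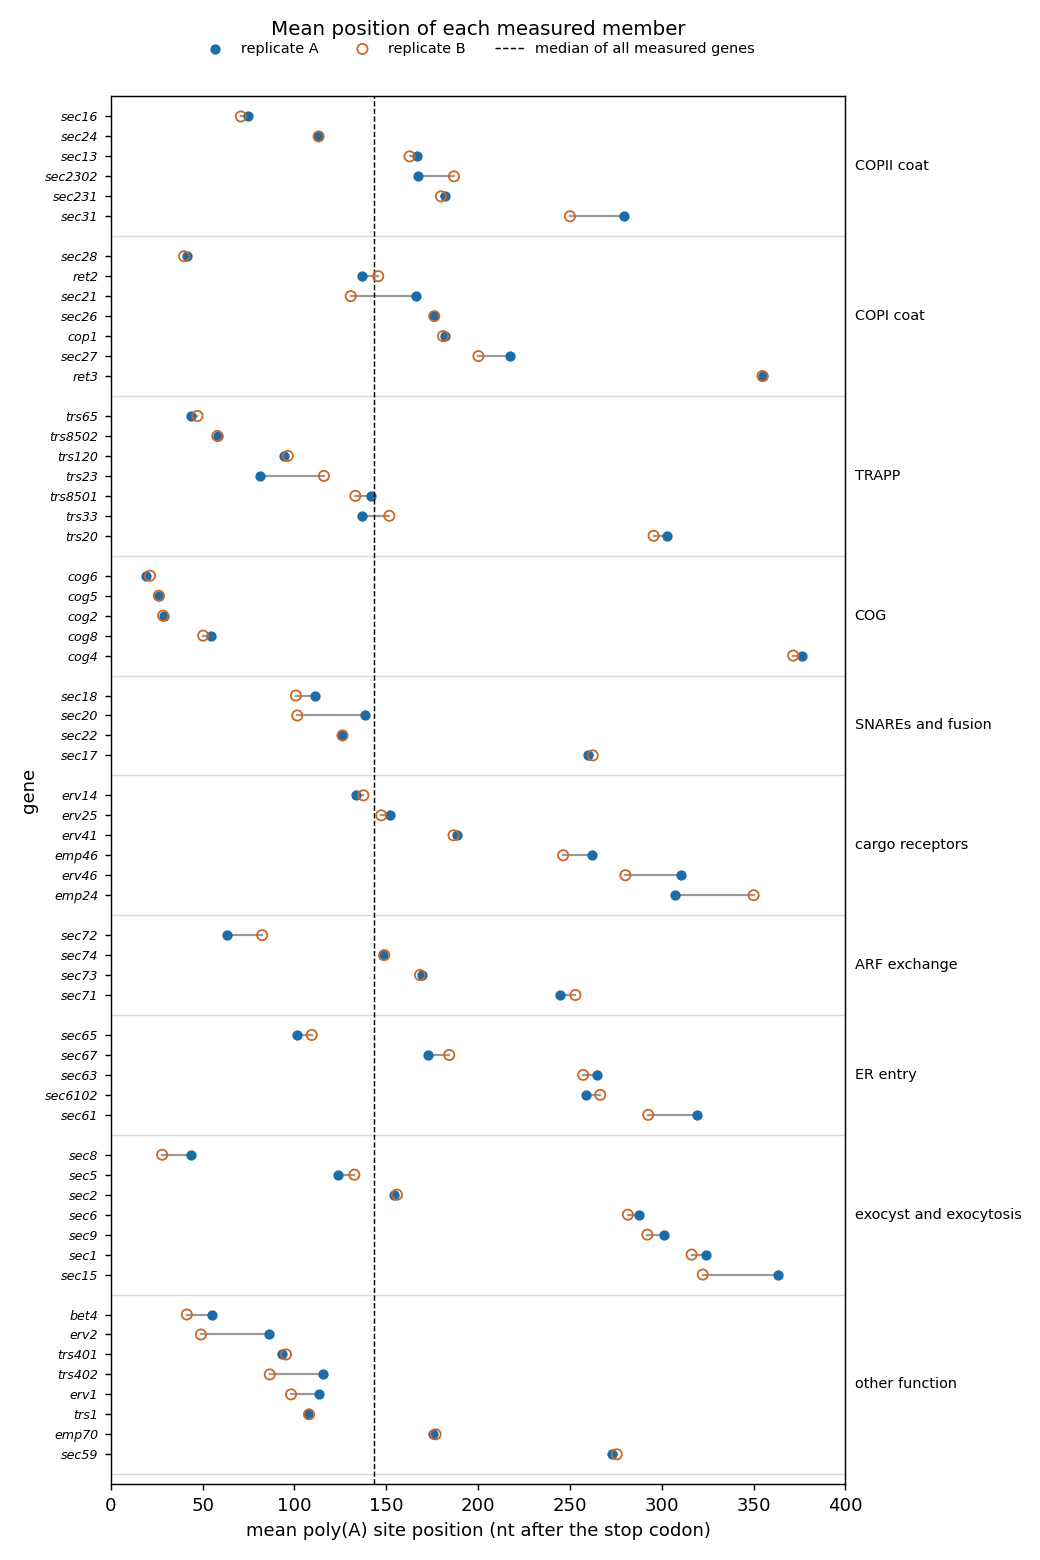
Mean poly(A) site position of the 59 measured members, in nt after the stop codon, grouped by assigned role. Filled points are replicate A and open points replicate B, joined by a line, and the dashed line is the median of all 3818 measured genes (143 nt). COG genes lie at the near end except cog4 at 374 nt, and COPI genes run from sec28 at 40.6 nt to ret3 at 355 nt.

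The plot of positions by role shows that the subunits of one complex did not share a position. By role, the median positions were 28.7 nt for the 5 measured COG genes, 98.7 nt for 7 TRAPP genes and 123 nt for 4 SNARE and fusion genes. They were 159 nt for 4 genes of ARF exchange, 171 nt for 6 COPII genes, 176 nt for 7 COPI genes and 221 nt for 6 cargo receptors. ER entry (5 genes, 261 nt) and the exocyst group (7 genes, 284 nt) had the largest medians, and the genes of other function lay at 103 nt. The 39 measured genes of ER-to-Golgi traffic alone had a median of 148 nt. The groups are small and the medians describe only the genes listed.

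The sequences below are the 30 bases that end at a site, from the RefSeq genome assembly ASM294v3, read 5′ to 3′ on the strand of the gene. Capitals mark AATAAA, the canonical polyadenylation signal, or one of its 18 single-base variants, where one starts 10 to 29 nt upstream of the site. Only a single hexamer is marked per stretch, and some stretches hold further matches that are left unmarked. Each name gives the gene and the distance of the site from the stop codon in nt. The first set shows the 11 members with at least 70% of the reads at a single site in each replicate, a limit chosen after the values were seen.
cog5 site 26 (chrII:2375714-2375743, minus strand): atagattaatAATAATtataatttatacat
cog6 site 18 (chrII:3193416-3193445, minus strand): tcagtaaactAATAAAattcttatcaattg
sec73 site 169 (chrI:2494251-2494280, plus strand): aaatccataatAATAAAttttatctctctt
ret3 site 357 (chrIII:2094741-2094770, plus strand): aatgcatAATGAAttattattttctctttt
ret2 site 118 (chrIII:1810348-1810377, plus strand): aactagaaatAATAATcatttttctatccc
emp70 site 175 (chrII:3522544-3522573, plus strand): gtcatccAATATAtaactacagtttgtttt
sec5 site 152 (chrIII:1413485-1413514, minus strand): aatgtgaatAATAATattccattcaccatc
cog8 site 53 (chrII:1491771-1491800, plus strand): aaaacaaatAATTAAttgttcttattactc
erv25 site 152 (chrI:1604981-1605010, plus strand): atttaatgcatatacactacttcactcttt
trs402 site 85 (chrI:191347-191376, plus strand): tgcaaatagttacgggattcttgacttttg
trs65 site 43 (chrII:4153207-4153236, plus strand): aactcaattcaactttttccattttttttg
The second set shows genes whose reads were divided between distant or neighbouring sites, and the sites at which paralogues ended.
sec21 site 86 (chrI:1524589-1524618, plus strand): agtacAATACAggcatttcttacattttgg
sec21 site 301 (chrI:1524804-1524833, plus strand): agcagttaatattaagtcattttgatccgt
sec26 site 34 (chrII:1029082-1029111, minus strand): gaattatataaggaatgttatccactcttt
sec26 site 218 (chrII:1028898-1028927, minus strand): tccttatgatatttctacgatttcgcaatt
sec24 site 109 (chrI:4802615-4802644, plus strand): catgattAATTAAtaatattcaatatggtt
sec24 site 117 (chrI:4802623-4802652, plus strand): attAATAATattcaatatggttaaacattc
sec61 site 343 (chrII:544728-544757, minus strand): tgtaaatttAATAAAcgaaaaatttttcct
sec6102 site 322 (chrII:2384570-2384599, plus strand): agtcAATAAAataagaggcagtatccgact
sec231 site 227 (chrIII:636959-636988, plus strand): tcttgcttatcaatattatttcgtttactg
sec2302 site 168 (chrII:3181308-3181337, plus strand): agaaaatgttcaagcatttgttaacaccat

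In the first set 8 of 11 stretches carry AATAAA or a variant, and those of erv25, trs402 and trs65 carry none. The marked hexamer is AATAAA in cog6 and sec73, AATAAT in cog5, ret2 and sec5, AATGAA in ret3, AATATA in emp70 and AATTAA in cog8. Such single-site genes were 18.6% of the members and 12.1% of all measured genes, and the share with a hexamer 10 to 40 nt upstream was 72.7% of the 11 and 79.2% of the 461 over all genes. In the second set neither site of sec26 has one, the near site of sec21 has AATACA and its far site has none. Over the members, AATAAA with its first base 10 to 40 nt upstream of the most used site, on the gene's strand and with overlapping matches allowed, was found for 11 of 59 (18.6%), against 20.8% of all measured genes. AATAAA or a single-base variant was found for 39 of 59 (66.1%), against 72.3%. Both shares were near, and below, those of all genes. Within the 30 bases, AATAAA was marked in 9 members, AATAAT in 7, AATATA in 4, AATTAA in 4, and no hexamer in 26. A match describes these letters and does not show that they are used.

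The COPII coat buds vesicles from the ER, and its 6 genes ran from 72.7 to 265 nt. sec16, which organises the sites where COPII vesicles form, was the deepest of the group and had the nearest sites, with mean positions of 74.6 nt (A) and 70.8 nt (B), or 72.7 ± 2.66 nt (SD, n = 2). Its most used site, 70 nt after the stop, held only 27.5% and 28.5% of the reads, and an AATAAA lies more than 29 nt upstream of it. sec24, the subunit that selects cargo, ended at 113 nt (A) and 113 nt (B), with its reads shared between sites at 109 nt (45.2% and 42.9%) and 117 nt (40.3% and 47.6%), both printed above. Its width was 8 and 8 nt, the narrowest of the coat. sec13, which forms the outer coat with sec31, lay at 165 ± 2.85 nt (SD, n = 2) and had a small near cluster (12% and 16.8%) and a main cluster at 161 to 197 nt (82% and 79.8%). sec31 lay farthest, at 279.7 nt (A) and 250.0 nt (B), and its site at 296 nt held 80.8% and 65.9%. The replicates of sec31 differed by 29.6 nt, and replicate B had a cluster at 134 to 164 nt with 29% of its reads that did not reach the threshold of 10% in A.

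Fission yeast has a pair of genes for Sec23, the COPII subunit that activates the GTPase of the coat, annotated as Sec23a (sec231) and Sec23b (sec2302). Their mean positions were alike, 181 ± 1.65 nt (SD, n = 2) and 177 ± 13.8 nt (SD, n = 2), and differed by 3.86 nt, less than the 19.6 nt between the replicates of sec2302. The sites behind those means were not the same. sec231 used a site at 227 nt (59.9% and 43.1%) and another at 108 nt (25% and 24.9%), whereas sec2302 used a site at 168 nt (59.4% and 41.8%). In B, sec231 also had a cluster at 165 to 170 nt with 26.6% of its reads. Its 165 nt site held 2.36% in A and 16.5% in B, a change that the small SD of its mean does not show. This cluster lies around the 168 nt site of sec2302, and matching by exact position does not count such neighbours as shared. Summed over exact positions, the profiles of the copies shared 0.184% of their area in A and 0.310% in B, against 75% and 71.9% between the replicates of each gene. This overlap was not computed for unrelated genes, which may share as little. A low value here or below therefore does not show that copies differ more than other genes do. The 2 most used sites lie within 10 nt of the annotated mRNA ends, at 235 and 169 nt.

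The other copies also used mostly different sites, and the plot of paired profiles shows sec61 with sec6102 and trs8501 with trs8502. sec61, which encodes the channel of the ER membrane, lay at 306 ± 18.7 nt (SD, n = 2) and its homologue sec6102 at 263 ± 5.55 nt (SD, n = 2). Their difference of 43.3 nt exceeded the 26.5 and 7.85 nt between replicates, and their profiles shared 3.0% in A and 0% in B. The main sites of both, at 343 and 322 nt, have AATAAA in the printed bases. In sec61 the sites at 343 nt (39% and 22.7%) and 347 nt (29.9% and 28.8%) lie downstream of the same AATAAA. trs8501 and trs8502, both named after the TRAPP subunit Trs85, lay at 137 ± 6.08 nt (SD, n = 2) and 58 ± 0.102 nt (SD, n = 2), 79.4 nt apart, with no shared position. The means of trs8502 agreed more closely than its sites, since the most used site was at 62 nt in A and 39 nt in B. The profiles of its replicates shared 63.6%. The profiles of trs401 and trs402 shared 0.0903% and 0.217% though their means differed by only 6.82 nt. The overlap of sec71 and sec72 was 1.77% and 2.35%, and erv1 and erv2 shared none.

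**Figure D2:**
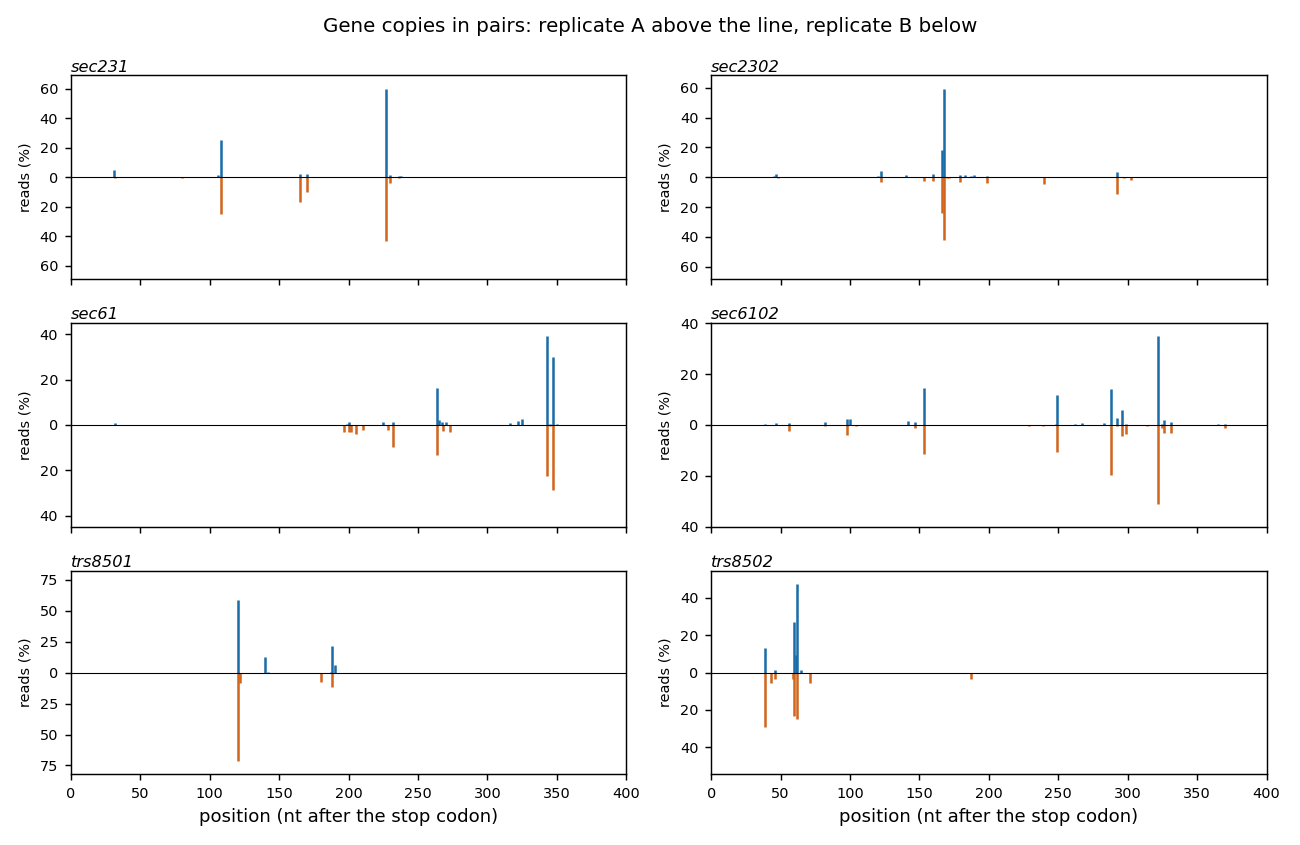
Share of each gene's reads (%) at each position after the stop codon (nt), replicate A above the line and B below, for the copies sec231 and sec2302, sec61 and sec6102, and trs8501 and trs8502. The bars of sec231 at 108 and 227 nt have no counterpart in sec2302, whose main bar is at 168 nt. In B, sec231 also has bars at 165 and 170 nt, on either side of that position.

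Cargo receptors hold particular proteins for packing into vesicles, and 5 of the 6 measured lay above the all-gene median. erv14, a cornichon-family receptor, lay nearest at 135 ± 2.97 nt (SD, n = 2), and it had a main cluster around its 105 nt site (38.2% and 39.9%). Its far cluster lay at 295 to 321 nt in A (10.4%) and at 321 nt alone in B (10.3%). The 321 nt site held 3.23% in A, and the 303 nt site held 4.61% in A and 0% in B. erv25, a p24-family protein, ended at 149.5 ± 3.19 nt (SD, n = 2) with a site at 152 nt holding 72.4% and 79.1%. erv41 and erv46 are known to form a complex in budding yeast. erv41 lay at 188 ± 1.38 nt (SD, n = 2), with an effective 12.3 sites, and erv46 at 311 nt (A) and 280.2 nt (B), with its site at 303 nt holding 59.9% and 64.1%. emp46, a lectin-family receptor, lay at 254 ± 11 nt (SD, n = 2) and used a site at 247 nt (70.0% and 66.5%). In emp46 a cluster at 380 to 382 nt held 11.9% of the reads in A, and its 380 nt site had 0 of 871 reads in B. The widths were 133 and 7 nt. emp24, another p24 protein, had the farthest mean, 307 nt (A) and 350.1 nt (B), from only 59 and 91 reads. In emp24 a cluster at 164 to 191 nt held 23.7% of the reads in A and did not reach 10% in B. erv29 had 0 and 4 reads and was not measured.

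The SNARE and fusion genes covered 106 to 261 nt. sec22, a SNARE of ER and Golgi vesicles, was at the same place in both replicates, 126 nt (A) and 126 nt (B), with a near site at 63 nt (11.7% and 10.3%) and a main one at 137 nt (70.0% and 66.7%). sec18, the ATPase that takes spent SNARE complexes apart, lay at 111 nt (A) and 101 nt (B). sec17, its partner alpha-SNAP, lay at 260.1 nt (A) and 262 nt (B), some way beyond sec18, with widths of 266 and 196 nt. sec20, a SNARE of the retrograde route, lay at 138 nt (A) and 102 nt (B) and is one of the genes whose replicates disagreed. The same 3 clusters were seen in each replicate, but the near cluster held 12.7% in A and 31.2% in B while the far one held 40.7% and 15.1%. The SNARE genes bos1 (143 and 33 reads) and bet1 (no read in either window) and the tether gene sec39 (150 and 47 reads) fell below the minimum in at least 1 replicate.

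TRAPP tethers vesicles and activates the Rab GTPase Ypt1, and 5 of its 7 measured genes lay below the all-gene median. The nearest was trs65 at 45.3 ± 2.57 nt (SD, n = 2), whose site at 43 nt held 78.9% and 78.6% of the reads. trs120, at 95.3 ± 1.54 nt (SD, n = 2), also had a narrow profile (11 and 11 nt), and its site at 90 nt follows an AATAAA. trs33, at 137 nt (A) and 152 nt (B), was divided among sites at 58 nt (9.91% and 14.2%), 125 nt (21.6% and 23.5%) and 174 nt (21.9% and 19%). The farthest was trs20 at 299 ± 5.10 nt (SD, n = 2), with a most used site at 298 nt (46.8% and 43.9%), 30 nt past the annotated end of its mRNA. Of the TRAPP genes, bet3 (54 and 43 reads), bet5 (1 and 9 reads), trs130 (48 and 58 reads) and trs31 (no read in either window) were not measured.

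trs23 had the widest TRAPP profile (253 and 280 nt), and its replicates differed by 34.6 nt, with 81.4 nt (A) and 116 nt (B), from 152 and 149 reads. The coding sequence of the convergent gene rpp102, which encodes an acidic ribosomal protein, ends 8 nt after the trs23 stop, so 100% of the trs23 reads in both replicates fell opposite that gene. The near cluster lay on the 18 nt site in A (44.7%, with 11.4% in B) and on the 30 nt site in B (49.7%, with 1.32% in A). At least 10% of the reads lay in or past the next gene's coding sequence in both replicates for 4 members (6.78%), erv14, sec61, trs23 and trs33, against 5.92% of all genes. In sec61 that share was 30.3% and 29.2%, and in trs33 it was 34.8% and 39.4%. The strand of reads is as the authors assigned it and was not tested here.

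The COPI coat, or coatomer, is a single complex of equal numbers of each subunit, and its 7 genes were all measured, at a median of 3436 and 2626 reads. By the mean of the replicates, the narrowest was ret3 (7 and 7 nt) and the widest sec27 (291 and 306 nt). The range between genes, from 40.6 ± 0.966 nt (SD, n = 2) for sec28 (epsilon subunit) to 355 ± 0.361 nt (SD, n = 2) for ret3 (zeta), was far larger than the 1.37 nt median difference between replicates. 5 of 7 were wider than the all-gene median, ret2 among them through replicate B alone, and their median width was 141.5 nt with a median effective number of sites of 9.43.

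**Figure D3:**
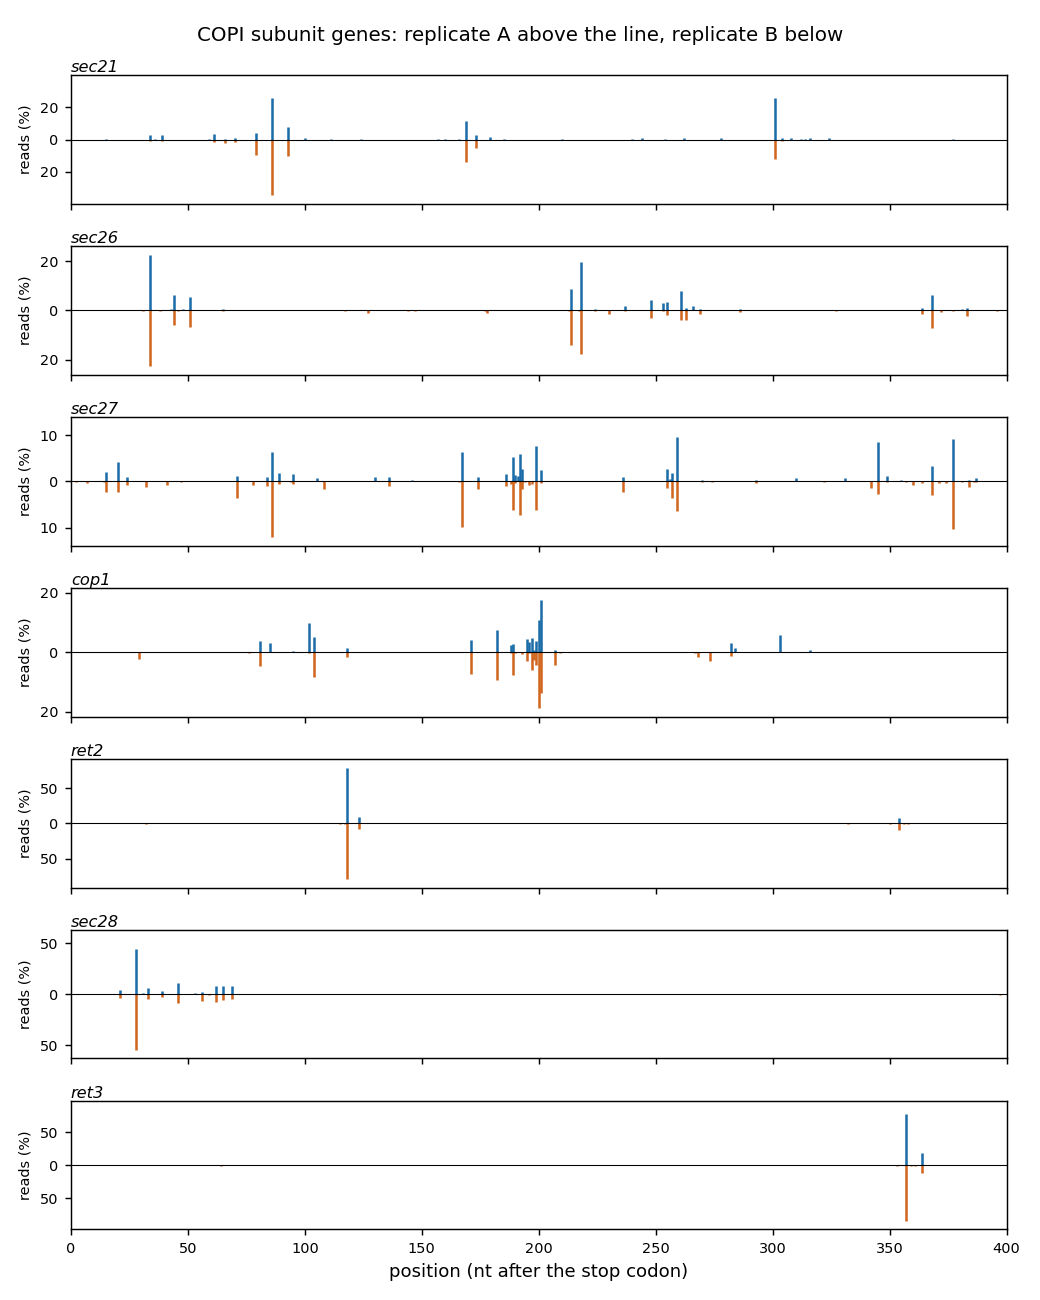
Share of reads (%) at each position after the stop codon (nt) for the 7 COPI genes, replicate A above the line and B below, each panel on its own scale. Bars of sec21, sec26 and sec27 are spread over most of the window, while ret3 has nearly all of its reads between 357 and 364 nt and sec28 between 21 and 69 nt.

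ret3 ended almost wholly in a cluster at 357 to 364 nt (96.2% and 96.8% of reads), with 77.2% and 84.6% at the 357 nt site. ret2, the delta subunit, lay at 141 ± 6.41 nt (SD, n = 2) and put 78.8% and 78.9% at its 118 nt site. A minor ret2 site at 354 nt held 7.07% and 8.66%, and its cluster passed 10% of the reads only in B (11.1%). The width of ret2 was 5 nt in A and 236 nt in B, although the profiles of the replicates shared 96%. sec28 put 99.3% of its reads in both replicates between 21 and 69 nt, and its 28 nt site held 44.2% and 54.6%. The leading site of each of these 3 genes held a larger share than that of the other 4 of the coat. It was less dominant in sec28, which had 6.58 and 5.27 effective sites, than in ret2 and ret3.

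The profiles of cop1, sec21, sec26 and sec27 were divided. cop1, the alpha subunit, lay at 181 ± 0.677 nt (SD, n = 2), with its main cluster at 171 to about 201 nt (62.4% and 76.5%) and a nearer one at 81 to 118 nt (23.9% and 14.2%). Its most used site, at 201 nt, held only 17.5% and 13.8%, and the site at 200 nt held 10.9% and 18.7%. The small SD does not mean that all sites were reproduced, since the profiles of the cop1 replicates shared 64.8%. A cluster at 282 to 303 nt (10.4%) reached the threshold of 10% in A only. The 102 nt site held 9.82% in A and 0.318% in B. sec26, the beta subunit, had nearly the same mean in both replicates, 176 nt (A) and 176 nt (B), but few of its reads were there. A near cluster at 34 to 51 nt held 34.3% and 35.5% of the reads, a middle one from 214 nt held 50.4% and 47.1%, and the sites at 34 and 218 nt led them (22.6% and 22.7%, and 19.7% and 17.9%). sec27, the beta-prime subunit, had 4 separate clusters in both replicates, 25.1 effective sites and a most used site, at 377 nt, with only 9.11% and 10.3% of the reads. It was the widest of all members.

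sec21, the gamma subunit, was the deepest member whose replicates lay more than 30 nt apart, at 166 nt (A) and 131 nt (B) from 3678 and 5033 reads. It used the same sites in both libraries, at 86, 169 and 301 nt, in different proportions. The 86 nt site held 25.8% of the reads in A (95% Wilson interval 24.4 to 27.3%) and 34.8% in B (33.5 to 36.1%). The 301 nt site held 26.1% in A (24.7 to 27.5%) and 11.9% in B (11.1 to 12.9%). These intervals do not overlap, so with reads taken as independent the difference between the libraries is beyond counting error. The replicate SD of 25.1 nt is the error to set against sec21. The middle site at 169 nt held 11.7% and 14.1%.

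ARF is switched on by exchange factors with a Sec7 domain, and the 4 members of this family, sec71 to sec74, included the sharpest profiles beside COG. sec73 put 95.6% and 96% of its reads at 169 nt, and its mean was 169 ± 0.837 nt (SD, n = 2). sec74 lay at 149 ± 0.461 nt (SD, n = 2), with a site at 147 nt (73.5% and 52.3%), 1 nt from the annotated end. sec72, at 72.7 ± 13.7 nt (SD, n = 2), was the nearest, and sec71, at 249 ± 5.82 nt (SD, n = 2), the farthest. The most used site of sec71 lay 144 nt past its annotated end, and 270 nt was used as well (33.6% and 23.3%, with 22.2% and 35.7% at 266 nt).

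By group medians, the COG genes had the nearest sites and the narrowest profiles. Of the 5 measured, 4 ended with mean positions up to 52.5 nt, none was wider than the all-gene median, and the median width was 15.5 nt. cog5 put 99.4% and 98.6% of 477 and 660 reads at a single site 26 nt after the stop (95% Wilson intervals 98.2 to 99.8% and 97.4 to 99.3%), so its mean was 26.1 ± 0.108 nt (SD, n = 2). cog6 had the nearest mean of all members, 20.1 ± 1.65 nt (SD, n = 2), with 93.7% and 79.7% at 18 nt, and cog2 lay at 28.7 ± 0.405 nt (SD, n = 2) with a most used site at 19 nt (50.8% and 32.1%). cog8 followed at 52.5 ± 3.19 nt (SD, n = 2) with 71.8% and 72.8% at 53 nt. cog4 was the exception at 374 ± 3.36 nt (SD, n = 2), the farthest of all members, with its main site at 381 nt (57.1% and 47.4%) close to the edge of the window. The 4 that ended near the stop have a convergent neighbour and cog4 has a tandem one, and the part of the neighbour in this was not tested. cog1 (34 and 107 reads) and cog3 (92 and 37 reads) fell below the minimum and were not measured. From these few reads, the most used site in both replicates was at 195 nt in cog1 and at 95 nt in cog3. Neither lies as near the stop as the mean positions of the 4 near genes. The neighbour of cog1 is convergent and that of cog3 tandem.

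The 400 nt window leaves out reads inside the coding sequence, which the deposited tables also give. For cog6 these were 46 and 89 reads, 6.63% and 22.8% of its total. In cog5 they were 8 and 5 reads. The largest number was in sec63, an ER translocation subunit, with 221 and 155 (15.4% and 14.8%), followed by sec61 with 74 and 102.

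All 5 measured genes of ER entry were wider than the all-gene median, with a median width of 172 nt, and 4 had at least 2 clusters in both replicates. sec65, a signal recognition particle subunit, was the nearest at 105 ± 5.81 nt (SD, n = 2) and among the deepest members. It had a main cluster around 50 nt (44.8% and 41.5% at that site) and widths of 196 and 279 nt. sec67, annotated as the translocation subunit Sec72, lay at 179 ± 8.12 nt (SD, n = 2) with sites at 122 nt (24.6% and 14.1%), 150 nt (18% and 28%) and 299 nt (15.1% and 11.9%). sec63 lay at 261 ± 5.36 nt (SD, n = 2), and the channel genes sec6102 and sec61 lay beyond it. The mean of sec6102 was 263 nt, which the replicates of sec63 do not separate from that of sec63. The signal peptidase gene sec11 (46 and 60 reads) and the translocation genes sec62 (34 and 20 reads) and sec66 (8 and 11 reads) were not measured.

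The exocyst group had 5 of 7 genes above the all-gene median at low depth, a median of 187 and 158 reads. The other 2 were sec8, at 43.6 nt (A) and 27.9 nt (B), and sec5, at 128 ± 6.40 nt (SD, n = 2). sec2, in budding yeast an exchange factor for the Rab of secretory vesicles and the deepest of the group, lay at 155 ± 1.16 nt (SD, n = 2) with 49.7% and 48.6% at 157 nt. sec6 at 284 ± 4.10 nt (SD, n = 2) and sec9, a SNARE of the plasma membrane, at 297 ± 6.32 nt (SD, n = 2) were followed by sec1, the SNARE-binding protein, at 320.2 ± 5.52 nt (SD, n = 2). The profiles of the sec1 replicates shared only 38.2%, from 126 and 93 reads. sec9 had a near site at 97 nt (8.72% and 15.2%) and a far one at 350 nt (38.2% and 36.4%), with widths of 262 and 262 nt. The farthest was sec15, at 363 nt (A) and 322 nt (B). The 337 nt site of sec15 held 41.2% of 187 reads in A and 0 of 158 in B, and 3 reads, the limit used for a count of 0, allow a share of up to 1.90%. The neighbouring 341 nt site held 3.21% in A and 17.1% in B, so B did have reads close to 337 nt. sec3 (33 and 2 reads) and sec10 (38 and 44 reads) were not measured.

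Among the 8 genes of other function, 6 lay below the all-gene median. bet4 was nearest at 48.2 ± 9.66 nt (SD, n = 2), with 51.8% and 56.8% at 13 nt, and sec59 farthest at 274 ± 1.66 nt (SD, n = 2) from 66 and 59 reads. The small SD of sec59 does not mean that its sites were reproduced, since the profiles of its replicates shared only 16.6%. Its 344 nt site held 42.4% in A and 0% in B, and its 227 nt site 3.03% and 54.2%. trs1, among the deepest members, lay at 108 ± 0.291 nt (SD, n = 2) and trs401 at 94.3 ± 1.54 nt (SD, n = 2). emp70 was narrow, with 78.6% and 79.6% at 175 nt, 1 nt from its annotated end. trs402 lay at 101 ± 20.6 nt (SD, n = 2). erv1 lay at 106 ± 10.7 nt (SD, n = 2) from 55 and 57 reads, and erv2 at 86.1 nt (A) and 49 nt (B) from 102 and 113 reads.

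Narrow profiles were found both near the stop, as in cog5, and far from it, as in ret3 and cog4, as the plot of position against width shows. A width of at most 5 nt in both replicates was seen in 3 of 59 members (5.08%), cog5, sec73 and sec74, against 9.3% of all genes. The 5 narrowest by the mean of the replicates were cog5 (0 and 0 nt), sec73 (0 and 0 nt), sec74 (4 and 4 nt), cog6 (0 and 10 nt) and emp70 (2 and 9 nt). A width of at least 200 nt in both was seen in 6 (10.2%), sec1, sec21, sec26, sec27, sec9 and trs23, against 7.67%. The 5 widest by the mean were sec27, sec26, trs23, sec9 and sec65. More than 12 effective sites were reached by 4 members (6.78%), cop1, erv41, sec26 and sec27, against 3.17% of all genes. Of these 4, 3 are COPI genes. Mean positions under 50 nt in both replicates were seen in 6 (10.2%, all genes 7.52%), cog2, cog5, cog6, sec28, sec8 and trs65. Positions over 300 nt in both were seen in 5 (8.47%, all genes 8.01%), cog4, emp24, ret3, sec1 and sec15.

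**Figure D4:**
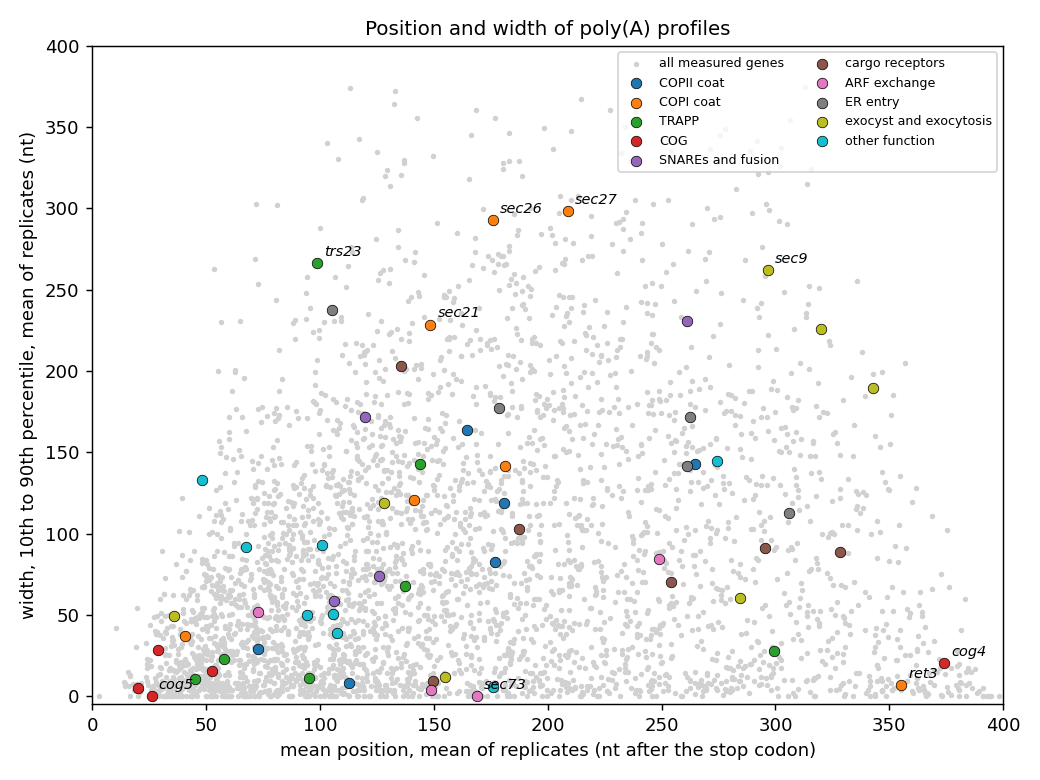
Mean poly(A) site position (nt after the stop codon) against width (nt, between the 10th and 90th percentiles), both as the mean of the replicates. Grey points are all 3818 measured genes and coloured points the 59 members by role. sec27 and sec26 lie at widths of 298.5 and 293 nt, and cog5 and sec73 at 0 nt.

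A gene's sites were grouped into clusters where a gap of 30 nt or more parted them, keeping clusters with at least 10% of the reads. At least 2 clusters in both replicates were found in 23 members (39%), near the 36.4% of all measured genes, and the order of these shares turned with other definitions of a cluster. By role they were 4 of 7 COPI genes (cop1, sec21, sec26, sec27), 4 of 5 ER entry genes (sec61, sec6102, sec65, sec67), 3 of 4 SNARE and fusion genes (sec17, sec20, sec22) and 3 of 7 TRAPP genes (trs23, trs33, trs8501). They also included sec13 and sec231 of COPII, erv14 of the cargo receptors, sec1, sec5 and sec9 of the exocyst group, and bet4, erv2 and sec59 of other function. No COG gene and no ARF exchange gene was among them. The clusters of a gene were counted in each replicate and need not be the same in A and B. In sec59 the far cluster was at 344 nt in A and 381 nt in B, and in sec1 the middle one at 335 to 347 nt and 258 nt. The clusters of erv2 lay at 20 to 88 and 170 to 183 nt in A, and at 25 and 55 to 59 nt in B.

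The annotated mRNA end, as the deposited tables give it, was within 10 nt of the most used site for 7 members (11.9%, all genes 17.9%), emp70, sec2302, sec231, sec24, sec6, sec74 and trs8501. The most used site lay more than 10 nt past it for 4 (6.78%, all genes 11.8%), sec61, sec71, trs20 and trs401, and the annotation gives trs401 no 3' UTR at all. For the remaining members the annotation runs beyond the most used site, and for 18 of 59 (30.5%, all genes 23.2%) it runs past the 400 nt window, so that longer isoforms would not be counted. This holds for cog2, cog4 and cog8 among the COG genes. A convergent neighbour faces 34 members (57.6%, all genes 58.4%) and a tandem one 25. The most used site lay inside or past the transcript of a convergent neighbour for 20 (33.9%), against 29% of all genes.

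The replicates of a member differed in mean position by a median of 7.22 nt, and of all genes by 5.18 nt. The median overlap of the profiles was 75.4% for members and 74.3% for all genes. Differences over 30 nt were seen in 7 members (11.9%, all genes 9.74%), emp24, erv2, erv46, sec15, sec20, sec21 and trs23. Of these, 6 had fewer than 500 reads in the shallower replicate and sec21 had 3678. Among the 26 members with 50 to 500 reads in the shallower replicate the median difference was 8.20 nt, among 30 with 500 to 5000 it was 6.05 nt, and among the 3 deepest, trs1, trs401 and sec16, it was 2.18 nt. Over all genes the values were 10.3, 3.69 and 0.692 nt. Differences of 10 nt or less between members of ordinary depth are thus of the size of the replicate difference, while that between sec28 and ret3 is far larger.

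**Figure D5:**
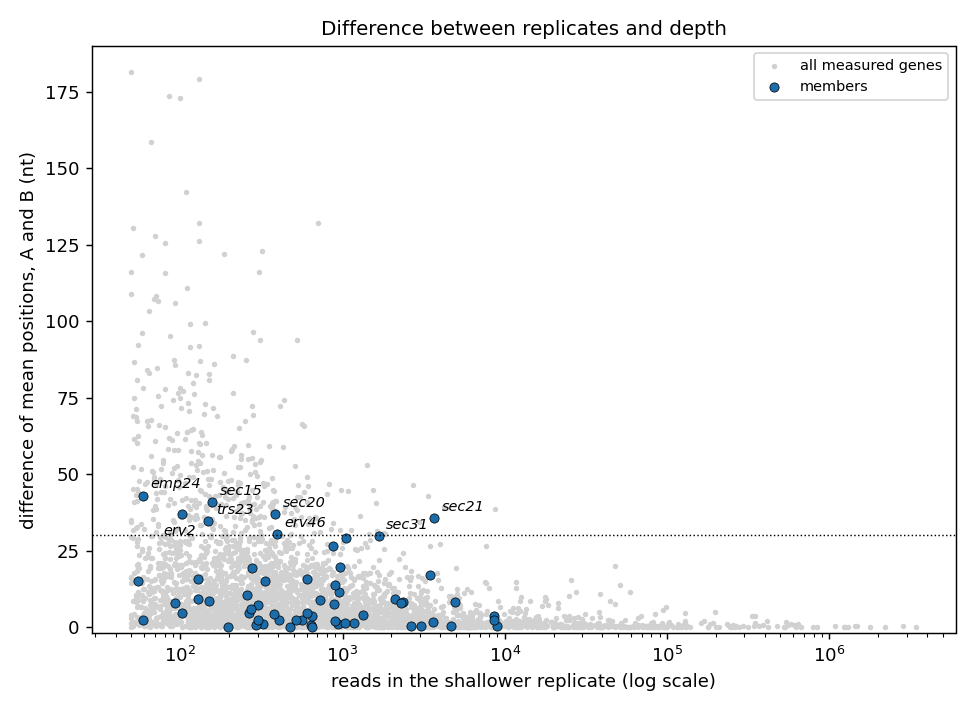
Absolute difference between the mean positions of replicates A and B (nt) against reads in the shallower replicate (log scale). Grey points are all measured genes and blue points members, and the dotted line marks 30 nt. sec21 is the only member above the line with more than 500 reads.

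Other genes of the same steps, from a list of 46 names outside the rule, were described the same way. The tables held 39 of them and 31 were measured, with a median position of 122 nt (18 below the all-gene median and 13 above) and a median width of 78.5 nt. At least 2 clusters in both replicates were seen in 14 (45.2%, all genes 36.4%). sar1, the GTPase that starts COPII assembly, lay at 331 ± 5.60 nt, beyond every COPII coat gene, whereas arf1, the GTPase that recruits COPI, lay at 74.1 ± 0.534 nt. ypt1, the Rab that TRAPP activates, lay at 112 ± 5.09 nt. The small channel subunit genes sbh1, at 70.2 ± 0.994 nt, and sss1, at 119 ± 0.604 nt, were far nearer than sec61 and sec6102. erp5, a p24-family cargo protein, lay at 111 ± 0.0348 nt, nearer than erv25 and emp24, whereas erp2 lay at 206 ± 7.64 nt, farther than erv25.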

How the data were processed

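Poly(A) site usage was measured by 3' READS in 2 libraries of 1 group. Reads were aligned with Bowtie, per the submitters' processing notes; neither its version nor the build is stated in the sources used here. The deposited tables list, per feature, a read signal, other values for each of 400 positions as percent of the highest position, and annotation columns, per the file headers. The authors' deposited signal is a count multiplied by one factor per table (0.930 in A, 0.869 in B). Dividing by it gave whole reads for 100% of 4000 (A) and 4066 (B) values checked, within 0.1.

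Each profile was rescaled to sum to 100 percent. Mean position, width, effective number of sites (exponential of the Shannon entropy) and clusters (positions with at least 1% of reads, gaps of 30 nt) were computed per replicate and averaged. The most used site is that with the highest mean share. Stop coordinates of all 5113 coding features equalled those of RefSeq assembly ASM294v3, which gave sequences, products and neighbours. No fit or test was made. Python 3.11.15, numpy 2.4.6, pandas 2.3.3, scipy 1.17.1 and matplotlib 3.10.9 were used, and the measures were tested on simulated data.

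The members, role groups and the list of other genes were chosen with earlier results of these data known. Values are named per replicate for the ends of each role group, the narrowest, widest and deepest members, those with replicates over 30 nt apart, those with 2 clusters, and gene copies. Alternatives covered single replicates, read minimum, window, merged table, and other definitions of position, width, cluster and hexamer window.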

Additional observations from a re-analysis of the deposited data

How the results depend on the processing

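The members' median position of 149 nt (all genes 143) was 149 and 152 nt with 1 replicate left out and 155 nt at a minimum of 200 reads (all genes 139.8). It fell below that of all genes over positions 1 to 300, 125 against 130.2 nt with 58 members measured, and at a minimum of 1 read, 149 against 154 nt. The median width of 84.5 nt (all genes 62.5) was 74 to 83 nt with 1 replicate left out, 58.8 nt over positions 1 to 300 (all genes 53) and 68 nt in the deposited merged table (all genes 61). As a standard deviation it was 42.4 nt (all genes 34.6) and between the 25th and 75th percentiles 26 nt (all genes 20), which are smaller by construction. Members with at least 2 clusters, 23 (39%, all genes 36.4%), were 9 when each cluster had to hold 20% of the reads (15.3%, all genes 20.4%), 24 at gaps of 20 nt (40.7%, all genes 44.7%), 20 at gaps of 40 nt (33.9%, all genes 29.6%) and 23 with no position left out (39%, all genes 32%), a setting added after seeing the data. The share of members was thus below that of all genes at 20% and at 20 nt gaps. Members below the median position of all genes numbered 18 to 38 over the alternatives (27 in the report), those above the median width 28 to 40 (34), and those with a hexamer 35 to 39 (39), where part of the change in the first 2 is the number of members measured. Single members moved most over positions 1 to 300 (ret3, by 246 nt), then with the median position of the reads (trs23, by 66.7 nt), and by at most 21.5 nt (emp24) with a replicate left out. No paired analysis was possible because there was 1 group and no test. Members with few reads and annotated ends past the window are the least certain.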
